A study of Saccharomyces cerevisiae with 24 samples.

Results

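The genes of sugar breakdown, alcohol formation and sugar synthesis were followed in 24 strand-specific RNA-seq libraries of the budding yeast Saccharomyces cerevisiae. They were chosen by name, as the rows of the sense-strand count table for hexokinases through pyruvate kinases, pyruvate decarboxylases, alcohol dehydrogenases, pyruvate carboxylases, and the enzymes of gluconeogenesis, the glyoxylate cycle and acetate activation. This gave 31 of the 6571 genes in that table, and all 31 symbols were found in the R64 annotation. The libraries came from 8 strains with 3 biological replicates each, and the altered ones were changed in Rad6, which conjugates ubiquitin, in Rtf1, a subunit of the Paf1 complex, or in the lysine of histone H2B to which Rad6 attaches ubiquitin. The comparisons ask how far each mutant differed from its wild type in expression.

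All strains shared the genotype MATa his3Δ200 lys2-128Δ ura3-52 trp1Δ63. WT untagged had no tag. WT tagged carried 3xHA-RTF1 and RAD6-13xMYC::KanMX. The deletion strains were rad6Δ untagged, with rad6Δ::KanMX alone, and rad6Δ tagged, with 3xHA-RTF1 beside it, so the latter lacked the Myc tag of its wild type. H2B-K123R was untagged and carried the substitution in both H2B genes, HTB1 and HTB2. The strains rad6-R6Q, rad6-R6A,M10A and rtf1-108-110AAA carried the tags of WT tagged on Rtf1 and Rad6. Each group was 1 strain. Cells were grown in the glucose medium YPD to log phase, at an optical density of 0.8 to 1.0, and mixed 9 to 1 by optical density with cells of another yeast, Kluyveromyces lactis, before RNA extraction.

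Glycolysis splits glucose into pyruvate. Budding yeast growing on glucose turns most of that pyruvate into ethanol through pyruvate decarboxylase and alcohol dehydrogenase, even in air. Many steps have several isozymes, of which 1 is abundant on glucose and others are made on other carbon sources or late in growth. Gluconeogenesis and the glyoxylate cycle run the other way, from ethanol or acetate to sugar, and their genes are repressed by glucose.

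Libraries held 7227245 to 10782960 sense and 411344 to 611282 antisense counts, and K. lactis supplied 12.3 to 14.9% of the reads counted for either species. RAD6 had 0 or 1 counts in the libraries of both deletions and at least 357 in every other one. The summed level of 6 genes that mark MATa cells was lower in every mutant than in its wild type. It was 3100 to 3410 CPM (counts scaled to the TMM-adjusted size of the sense library) in the wild types, 772 to 913 in the deletions and 1720 to 2230 in the other mutants. The 4 genes that mark MATα cells summed to 9.07 to 12.4 CPM in H2B-K123R and to 5.49 to 8.88 in all other libraries. In H2B-K123R 2 of the 3 tested rose, beside 14% of all genes. The summed level of 7 genes of late growth and stress was 62.2, 79.1 and 60.6 CPM in the libraries of WT untagged and 302, 56.4 and 67 in those of WT tagged, so replicate 1 of WT tagged stood apart. That sum was 386, 323 and 498 CPM in rad6Δ untagged, 391, 311 and 317 in rad6Δ tagged, and 476, 408 and 101 in H2B-K123R. It lay between 54.1 and 132 CPM in the other 3 mutants.

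Levels spanned more than 4 decades when counts were set per kilobase of coding length. FBA1, the aldolase, stood highest, with group means of 12500 to 21200 CPM per kb, and PGK1, phosphoglycerate kinase, came next with 7410 to 12400. The glyceraldehyde-3-phosphate dehydrogenase TDH3 (3020 to 5930 CPM per kb), the enolase ENO2 (2820 to 5560) and the alcohol dehydrogenase ADH1 (2500 to 5890) followed, and their ranges overlapped. The lowest 3 in WT tagged were PDC6, a pyruvate decarboxylase (0.475 to 4.59 CPM per kb), MLS1, malate synthase (0.454 to 2.24), and FBP1, fructose-1,6-bisphosphatase (0.406 to 1.47). CDC19, the main pyruvate kinase, was at 340 to 658 CPM per kb, and PDC1, the main pyruvate decarboxylase, at 142 to 345. The 31 genes together took 7.58% ± 0.293 of the sense counts in WT untagged and 6.38% ± 0.383 in WT tagged (SD, n = 3). The share was 5.26% ± 0.451 in rad6Δ untagged, 5.34% ± 0.274 in rad6Δ tagged, 5.6% ± 0.391 in H2B-K123R, 5.93% ± 0.193 in rad6-R6A,M10A, 5.36% ± 0.627 in rtf1-108-110AAA and 5.21% ± 0.739 in rad6-R6Q. Each mutant thus had a lower mean share than its wild type. Libraries of rad6-R6Q (4.57 to 6.02%) and rad6-R6A,M10A (5.75 to 6.14%) overlapped those of WT tagged (5.94 to 6.63%). The wild types themselves did not overlap, with 7.37 to 7.92% in WT untagged.

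**Figure D1:**
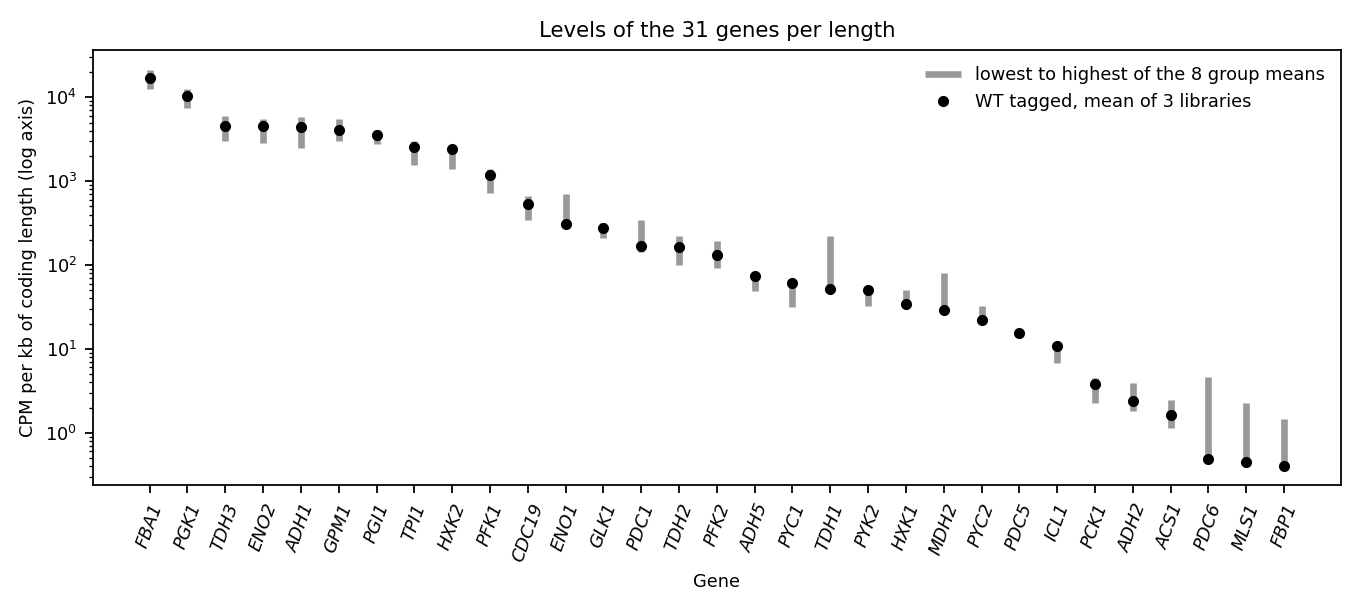
Level of the 31 genes in CPM per kilobase of coding length, on a log axis. The dot is the mean of the 3 WT tagged libraries and the line spans the means of the 8 groups, from FBA1 at 12500 to 21200 down to FBP1 at 0.406 to 1.47.

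In glycolysis and fermentation, PFK1 was called as fallen in 6 mutants, FBA1 and TPI1 in 5, and HXK2, TDH2, CDC19 and ADH1 in 4. Falls of the abundant PGK1, ENO2 and PGI1 were called in 3 mutants, and that of TDH3 in 1. The minor isozymes ENO1 and PDC6 rose in 6 mutants and TDH1 in 4, while MLS1 of the glyoxylate cycle rose in 5 and MDH2 of gluconeogenesis in 4. With edgeR's quasi-likelihood test, a gene was called at a Benjamini-Hochberg adjusted p under 0.05 over all 5790 genes tested, and all 31 members were among those. In rad6Δ tagged against WT tagged, 7 members rose and 10 fell, where 21.5% and 20.2% of all genes did. In rad6Δ untagged against WT untagged, 5 rose and 16 fell, beside 22.3% and 20.5% of all genes. In H2B-K123R, 5 rose and 12 fell, beside 14% and 12.3%, but 2 rose without replicate 2 of either group and 3 without replicate 1 of either or replicate 3 of WT untagged. The deletions and H2B-K123R therefore had member shares of falls above the background, and shares of rises near or below it. So did rtf1-108-110AAA and rad6-R6Q, while rad6-R6A,M10A had a share of rises above the background and of falls below it. In rtf1-108-110AAA, 3 rose and 9 fell (11.9% and 12.6% of all genes), in rad6-R6Q 3 rose and 6 fell (14.6% and 14.5%), and in rad6-R6A,M10A 6 rose and 2 fell (12% and 13.2%). Shares called in either direction over all genes were 41.7%, 42.8%, 26.3%, 24.5%, 29.1% and 25.2% in the same order. Member medians of the log2 fold change were −0.12, −0.49, −0.09, −0.23, −0.23 and −0.14, beside medians of 0.02, 0.00, −0.01, 0.00, −0.02 and 0.00 over all genes. PFK1 fell in all 6 mutants, as 4.97% of all genes did, and ENO1 and PDC6 rose in all 6, as 4.8% did. HXK1, GLK1, PDC5, ADH2, FBP1 and PYC1 were called in none with TMM scaling. In RNA from whole cultures, fewer cells with a transcript and less of it per cell cannot be told apart. Where 6 values stand in a row below, they follow the order rad6Δ tagged, rad6Δ untagged, H2B-K123R, then rtf1-108-110AAA, rad6-R6Q, and last rad6-R6A,M10A, called the strain order. The mutants of a tag status share their wild-type libraries, so their values are set side by side and not counted as separate evidence.

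**Figure D2:**
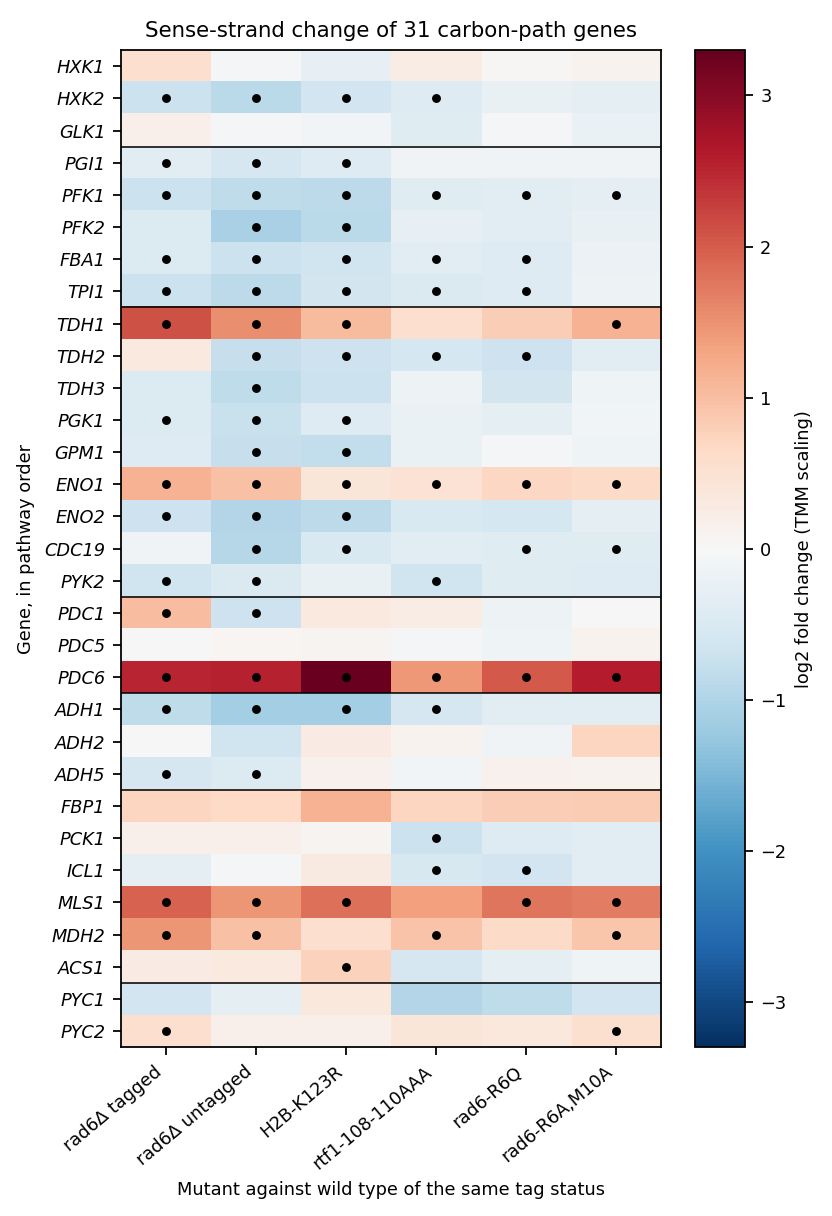
Log2 fold change of the 31 genes, in order of the pathway, in the 6 mutants against the wild type with matching tags; a dot marks a call. ENO1 and PDC6 are called as risen in all 6 columns and PFK1 as fallen in all 6, while rad6Δ untagged has the most falls, 16 of 31.

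Part of the falls depended on how the libraries were scaled. Scaling to the K. lactis counts moved the median over all genes, on the log2 scale, by 0.19, 0.12, −0.08, 0.25, 0.21 and 0.21 in the strain order. With that scaling 8 members rose and 6 fell in rad6Δ tagged, 5 rose and 13 fell in rad6Δ untagged, and 3 rose and 12 fell in H2B-K123R. In rtf1-108-110AAA 5 rose and 0 fell, in rad6-R6Q 6 rose and 1 fell, and in rad6-R6A,M10A 7 rose and 0 fell. Over all genes, 32.1%, 27.6%, 9.82%, 28.1%, 27.1% and 24.4% rose and 11.1%, 13.9%, 14.8%, 4.01%, 5.43% and 4.89% fell under it. The falls of HXK2, PFK1, FBA1, TPI1 and ADH1 were called under both scalings in both deletions and in H2B-K123R. None of the 9 falls in rtf1-108-110AAA, 1 of the 6 in rad6-R6Q (TDH2) and none of the 2 in rad6-R6A,M10A were called under both. All rises called with TMM were called with K. lactis too, except those of TDH1 and ENO1 in H2B-K123R. Rises called with K. lactis scaling and not with TMM were those of TDH2 in rad6Δ tagged, MLS1 and PYC2 in rtf1-108-110AAA, ADH2 in rad6-R6A,M10A, and TDH1, MDH2 and PYC2 in rad6-R6Q. Apart from that of TDH2 in rad6-R6Q, the falls in the 3 substitution mutants of Rtf1 and Rad6 were thus called relative to the other genes of the library and not relative to K. lactis. Those K. lactis values used TMM on the K. lactis counts. Scaled to K. lactis total counts, an alternative added later, 9 members rose and 4 fell in rad6Δ tagged. Not all 5 falls named above were thus called there. In H2B-K123R, 5 members rose and 11 fell with total counts. The median over all genes was then 0.04 in H2B-K123R, in place of −0.09 with TMM on the K. lactis counts. With TMM scaling but without replicate 1 of WT tagged, the library with the high stress sum, 7 members rose and 9 fell in rad6Δ tagged. In the same way 1 rose and 6 fell in rtf1-108-110AAA, 2 rose and 4 fell in rad6-R6Q, and 3 rose and 2 fell in rad6-R6A,M10A. Counts of rises or falls also moved by over 1.5 times without other single libraries. In rtf1-108-110AAA 1 rose without its replicate 3, and in rad6-R6Q 5 rose without its replicate 1. In rad6-R6A,M10A 4 rose and 1 fell without replicate 2 of WT tagged, 3 rose and 1 fell without replicate 3 of either group, and 0 fell without its replicate 2.

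**Figure D3:**
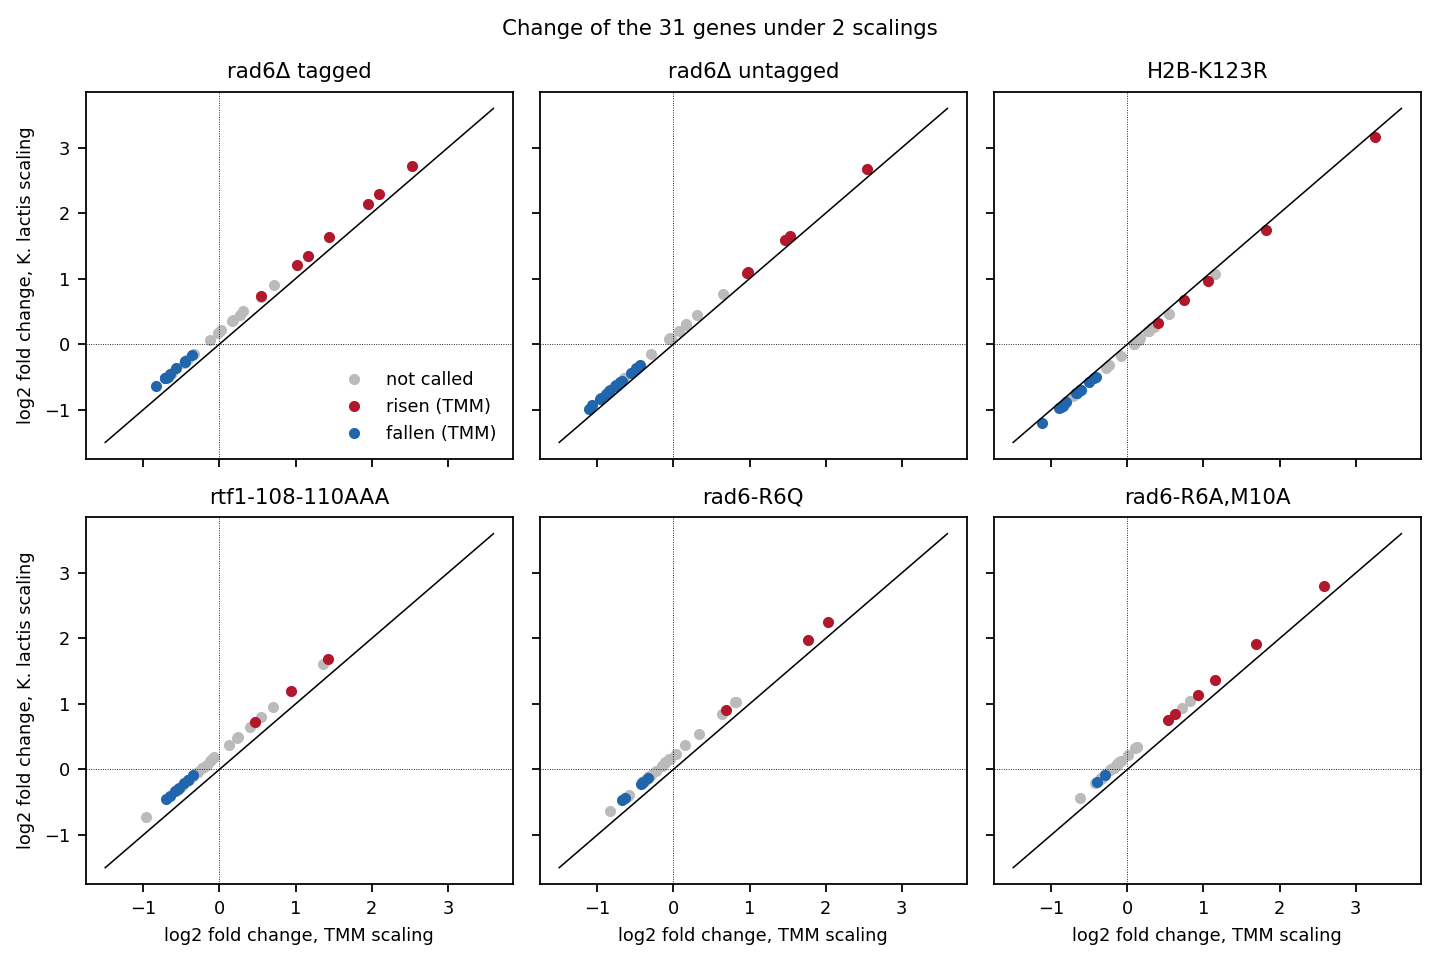
Log2 fold change of each of the 31 genes with TMM scaling (horizontal axis) and with scaling to K. lactis counts (vertical axis), 1 panel per mutant. Points lie above the diagonal by about the shift of the median of all genes, 0.25 in rtf1-108-110AAA, and below it in H2B-K123R, where the shift was −0.08.

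At the entry to glycolysis, HXK2, the main hexokinase on glucose, fell in 4 of 6 mutants. HXK2 had 3770, 3835 and 3786 CPM in WT untagged, 2058, 2123 and 2002 in rad6Δ untagged, and 2422, 2466 and 2515 in H2B-K123R. In the tagged strains it had 3403, 3431 and 3681 CPM in WT tagged, 2186, 2162 and 2074 in rad6Δ tagged, and 2881, 2625 and 2384 in rtf1-108-110AAA. Every library of these mutants lay below every library of its wild type. The log2 fold change was −0.88 ± 0.12 in rad6Δ untagged (SE; adjusted p = 5.31e-06, edgeR), −0.71 ± 0.12 in rad6Δ tagged (adjusted p = 6.78e-05), −0.62 ± 0.12 in H2B-K123R (adjusted p = 0.00061) and −0.41 ± 0.12 in rtf1-108-110AAA (adjusted p = 0.0145). The last call was lost without replicate 3 of either group (adjusted p up to 0.0564) and with K. lactis scaling (adjusted p = 0.322). HXK2 was not called in rad6-R6Q, at 3606, 2733 and 2611 CPM, or in rad6-R6A,M10A, at 3352, 2761 and 2283, and 1 library of rad6-R6Q lay within the range of WT tagged. HXK1, a second hexokinase, had group means of 34.3 to 50.1 CPM per kb, and GLK1, glucokinase, 210 to 314. HXK1 made up 2.08 to 3.48% of the HXK1 and HXK2 counts in the 6 deletion libraries and 0.903 to 1.88% in the 6 wild-type ones, without a call for HXK1 itself. Each of the other mutants overlapped both ranges, with libraries from 0.872% in H2B-K123R to 3.37% in rtf1-108-110AAA.

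The 5 genes of upper glycolysis, from glucose-6-phosphate to the triose phosphates, moved in 1 direction. Of PGI1, PFK1, PFK2, FBA1 and TPI1, 4, 5, 5, 3, 3 and 1 fell in the strain order, and none rose. PFK1 and PFK2 encode the α and β subunits of phosphofructokinase, which commits sugar to glycolysis. PFK1 (YGR240C, chromosome VII, 970771 to 973734, minus strand, R64) had 4388, 4227 and 3802 CPM in WT untagged, 2104, 2427 and 2401 in rad6Δ untagged, and 2503, 2431 and 1947 in H2B-K123R. Among strains with tags PFK1 had 3770, 3430 and 3290 CPM in WT tagged, 2273, 2153 and 1990 in rad6Δ tagged, 2582, 2669 and 2647 in rtf1-108-110AAA, 2716, 2752 and 3056 in rad6-R6A,M10A, and 2663, 2906 and 2728 in rad6-R6Q. No mutant library reached the range of its wild type. The log2 fold change of PFK1 was −0.84 ± 0.10 in rad6Δ untagged (SE; adjusted p = 1.01e-06, edgeR), −0.85 in H2B-K123R (adjusted p = 1.84e-06) and −0.71 ± 0.10 in rad6Δ tagged (adjusted p = 9.16e-06). It was −0.41 in rtf1-108-110AAA, −0.34 in rad6-R6Q, and −0.30 for rad6-R6A,M10A (adjusted p = 0.00488, 0.0146 and 0.0332). With K. lactis scaling those 3 values shrank to −0.16, −0.13 and −0.08 and were not called. The fall in rad6-R6Q was also lost without replicate 1 of WT tagged (adjusted p = 0.052), and that in rad6-R6A,M10A without replicate 1 or 2 of either group (adjusted p up to 0.13).

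Per kilobase, PFK2 (92.1 to 193 CPM per kb) stood below PFK1 (722 to 1400) in every group. It had 682, 483 and 499 CPM in WT untagged, 204.1, 291.7 and 299.8 in rad6Δ untagged, and 311, 366 and 215 in H2B-K123R. These groups did not overlap, and PFK2 fell by 1.06 ± 0.25 on the log2 scale in rad6Δ untagged (SE; adjusted p = 0.00201, edgeR) and by 0.90 in H2B-K123R (adjusted p = 0.0118). In H2B-K123R the call was lost without replicate 1 of WT untagged or replicate 3 of H2B-K123R (adjusted p up to 0.0827). WT tagged had 372, 449 and 306 CPM of PFK2, and the tagged mutants ranged from 202 in rtf1-108-110AAA to 404 in rad6-R6A,M10A and overlapped it.

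FBA1 and TPI1, aldolase and triose phosphate isomerase, fell in every mutant but rad6-R6A,M10A. FBA1 had 23440, 22710 and 22500 CPM in WT untagged, 13310, 14810 and 14180 in rad6Δ untagged, and 14220, 14580 and 14660 in H2B-K123R. In WT tagged it had 18670, 17660 and 19050 CPM, against 14100, 13110 and 13420 in rad6Δ tagged, 14130, 14710 and 14720 in rtf1-108-110AAA, 15550, 16400 and 16540 in rad6-R6A,M10A, and 12280, 14660 and 14600 in rad6-R6Q. No mutant library reached its wild type. The log2 fold changes were −0.70 in rad6Δ untagged (adjusted p = 9.39e-07, edgeR), −0.66 in H2B-K123R (4.23e-06), −0.45 ± 0.08 in rad6Δ tagged (SE; 0.000176), −0.41 in rad6-R6Q (0.000763), −0.35 in rtf1-108-110AAA (0.00404) and −0.19 in rad6-R6A,M10A (0.0953). TPI1 fell by 0.85, 0.61, 0.70, 0.46 and 0.42 on the log2 scale in rad6Δ untagged, H2B-K123R, rad6Δ tagged, rtf1-108-110AAA and rad6-R6Q (adjusted p = 7.6e-05, 0.00354, 0.000557, 0.0231 and 0.034). TPI1 stood at 2373, 2273 and 2142 CPM in WT untagged, 1170, 1564 and 1026 in rad6Δ untagged, and 1447, 1625 and 1370 in H2B-K123R. It stood at 2267, 1778 and 1646 CPM in WT tagged, 1168, 1197 and 1131 in rad6Δ tagged, 1240, 1328 and 1556 in rtf1-108-110AAA, 1503, 1949 and 1588 in rad6-R6A,M10A, and 1267, 1623 and 1360 in rad6-R6Q. Only in rad6-R6A,M10A did the libraries overlap those of the wild type. The falls of both genes in rtf1-108-110AAA and rad6-R6Q were not called with K. lactis scaling, and in rad6-R6A,M10A, where neither was called, the sign turned to 0.02 and 0.03. The TPI1 calls in rtf1-108-110AAA and rad6-R6Q were each lost in 3 leave-one-out fits, without replicate 1 of WT tagged, replicate 1 or 2 of rtf1-108-110AAA, and replicate 1 or 3 of rad6-R6Q (adjusted p up to 0.167).

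Of the 9 genes of lower glycolysis, the minor isozymes ENO1 and TDH1 were the ones called as risen, while the other minor isozymes, TDH2 and PYK2, were called as fallen in 4 and 3 mutants. In the strain order, 2, 2, 2, 1, 1 and 2 of them rose and 3, 7, 5, 2, 2 and 1 fell. ENO1 rose in each mutant, and TDH1 in all but rtf1-108-110AAA and rad6-R6Q. Members of these isozyme families are near-identical in sequence, with 94.8% identity between ENO1 and ENO2, 88.9% between TDH1 and TDH3 and 95.8% between TDH2 and TDH3. Of the 50-base windows, 23.6% of each enolase gene, 15.7% of TDH1, 31.3% of TDH2 and 24.4% of TDH3 had an exact copy elsewhere in R64. Reads from such windows could be lost or split, so these counts are uncertain.

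ENO1 (YGR254W, chromosome VII, 1000927 to 1002240, plus strand, R64), the enolase of growth on other carbon sources, rose in all 6 mutants. It had 485, 449 and 454 CPM in WT untagged, 904, 1036 and 764 in rad6Δ untagged, and 585, 707 and 539 in H2B-K123R. With the tags present it had 436, 355 and 439 CPM in WT tagged, 893, 917 and 934 in rad6Δ tagged, 570, 647 and 491 in rtf1-108-110AAA, 577, 605 and 717 in rad6-R6A,M10A, and 605, 738 and 646 in rad6-R6Q. Every mutant library lay above every library of its wild type, and the deletions lay highest. The log2 fold change was 1.16 ± 0.13 in rad6Δ tagged (SE; adjusted p = 4.69e-07, edgeR) and 0.96 in rad6Δ untagged (adjusted p = 4.69e-06). It was 0.69, 0.63, 0.47 and 0.40 in rad6-R6Q, rad6-R6A,M10A, rtf1-108-110AAA and H2B-K123R (adjusted p = 0.000426, 0.00137, 0.0106 and 0.0268). The call in H2B-K123R was lost with K. lactis scaling (0.32, adjusted p = 0.0899) and without replicate 2 or 3 of WT untagged or replicate 2 of H2B-K123R, and that in rtf1-108-110AAA without replicate 2 of either group (adjusted p up to 0.187 and 0.0722).

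ENO2 (YHR174W, chromosome VIII, 451327 to 452640, plus strand, R64), the enolase of growth on glucose, had a lower mean level in every mutant. It had 8291, 6730 and 6908 CPM in WT untagged, 2827, 4307 and 4063 in rad6Δ untagged, and 4312, 4949 and 2700.0 in H2B-K123R. In the tagged strains it had 6124, 6619 and 5059 CPM in WT tagged, 3666, 4049 and 3401 in rad6Δ tagged, 2998, 4790 and 4834 in rtf1-108-110AAA, 4394, 4193 and 5947 in rad6-R6A,M10A, and 2572, 5315 and 3951 in rad6-R6Q. ENO2 fell in 3 mutants, by 0.97 on the log2 scale in rad6Δ untagged (adjusted p = 0.00365, edgeR), 0.87 in H2B-K123R (adjusted p = 0.013) and 0.68 ± 0.25 in rad6Δ tagged (SE; adjusted p = 0.0339). The last of these was lost in 5 of 6 leave-one-out fits, all but that without replicate 3 of WT tagged (adjusted p up to 0.116), and with K. lactis scaling (−0.50, adjusted p = 0.153). The call in H2B-K123R was lost without replicate 1 of WT untagged or replicate 3 of H2B-K123R (adjusted p up to 0.0952). Its log2 fold changes of −0.29 in rad6-R6A,M10A, −0.50 in rtf1-108-110AAA and −0.59 in rad6-R6Q were not called (adjusted p = 0.419, 0.155 and 0.0808). Replicate 1 of rad6-R6Q, replicate 3 of H2B-K123R and replicate 1 of rtf1-108-110AAA were the lowest of their groups for both ENO2 and TDH3. As a share of the counts of both enolases, ENO1 took 5.09 to 7.99% in the wild types, 15.8 to 24.2% in the deletions and 9.22 to 19% in the other mutants, with no overlap between wild types and mutants.

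The stretch from 550 to 251 bases before each enolase start codon is shown because the pair moved apart in the deletions. Capitals mark CTTCC or its complement GGAAG, the core letters bound by Gcr1, an activator of glycolytic genes. The sequences are from R64, 5′ to 3′ along the gene, at chrVII:1000377-1000676 (plus strand) for ENO1 and chrVIII:450777-451076 (plus strand) for ENO2.
ENO1: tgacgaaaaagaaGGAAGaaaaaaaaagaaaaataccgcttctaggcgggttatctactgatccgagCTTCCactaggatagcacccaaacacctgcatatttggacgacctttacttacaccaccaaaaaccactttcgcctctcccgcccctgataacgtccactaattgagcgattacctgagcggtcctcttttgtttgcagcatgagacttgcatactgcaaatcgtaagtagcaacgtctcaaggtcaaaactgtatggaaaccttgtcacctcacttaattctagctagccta
ENO2: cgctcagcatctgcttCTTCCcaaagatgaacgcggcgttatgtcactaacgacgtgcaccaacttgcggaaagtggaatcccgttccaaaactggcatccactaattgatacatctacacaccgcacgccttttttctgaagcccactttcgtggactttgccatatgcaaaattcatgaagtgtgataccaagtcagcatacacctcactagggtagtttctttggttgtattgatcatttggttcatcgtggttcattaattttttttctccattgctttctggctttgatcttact
The stretch holds 2 such matches for ENO1 and 1 for ENO2, whereas the 600 bases before the start codon hold 2 for ENO1 and 3 for ENO2. Within 600 bases before the start codon, on either strand, CTTCC was found at 24 of the 31 genes and at 72.9% of 6005 genes, and 3 or more matches at 11 of the 31 and at 15.6% of all. A match describes letters only.

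Of the TDH isozymes, glyceraldehyde-3-phosphate dehydrogenases, TDH1 rose in 4 mutants, TDH2 fell in 4 and TDH3 fell in 1. TDH1 (YJL052W, chromosome X, 338271 to 339269, plus strand, R64), an isozyme made in slow or late growth, had 87.7, 78.9 and 60.7 CPM in WT untagged, 211, 294 and 150.0 in rad6Δ untagged, and 148, 187 and 138 in H2B-K123R. Among strains with tags it had 63.5, 47.2 and 44.9 CPM in WT tagged, 225, 244 and 197 in rad6Δ tagged, and 122, 94.4 and 129 in rad6-R6A,M10A. In these 4 mutants every library lay above its wild type. TDH1 rose by 2.10 ± 0.37 on the log2 scale in rad6Δ tagged (SE; adjusted p = 0.000153, edgeR), 1.53 ± 0.36 in rad6Δ untagged (adjusted p = 0.00202), 1.15 in rad6-R6A,M10A (adjusted p = 0.026) and 1.06 in H2B-K123R (adjusted p = 0.035). The last 2 calls were fragile. That in H2B-K123R was lost in 5 of 6 leave-one-out fits, all but that without its own replicate 3 (adjusted p up to 0.12), and with K. lactis scaling (adjusted p = 0.0684). That in rad6-R6A,M10A was lost without replicate 2 or 3 of WT tagged or its own replicate 1 or 3 (adjusted p up to 0.0915). In rtf1-108-110AAA, at 44.7, 83.7 and 98.2 CPM, and rad6-R6Q, at 38.6, 151 and 85.3, replicate 1 lay at or below the wild type and the other two above it, and TDH1 was not called (log2 0.55 and 0.82, adjusted p = 0.296 and 0.0941). With K. lactis scaling the value in rad6-R6Q was called (log2 1.03, adjusted p = 0.0461). Of 7 stress genes, 4, 4, 5, 0, 1 and 2 rose in the strain order, beside 21.5%, 22.3%, 14%, 11.9%, 14.6% and 12% of all genes. Their part in the TDH1 values was not tested.

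TDH3, the most abundant isozyme, fell in rad6Δ untagged alone among the 6 mutants (log2 −0.83, adjusted p = 0.031, edgeR), and 4 of 6 leave-one-out fits lost that call, without replicate 1 or 3 of either group (adjusted p up to 0.12). It was also lost with K. lactis scaling (log2 −0.70, adjusted p = 0.0861). TDH3 had 6905, 5029 and 5844 CPM in WT untagged against 2765, 3761 and 3445 in rad6Δ untagged. TDH1 took 0.849 to 1.54% of the TDH1 and TDH3 counts in the wild-type libraries, 4.17 to 7.26% in the deletions, 3.75 to 4.84% in H2B-K123R, 1.63 to 1.95% in rtf1-108-110AAA, 2.66 to 3.22% in rad6-R6Q and 2.6 to 2.72% in rad6-R6A,M10A. The wild types lay lowest, rtf1-108-110AAA next, both rad6 substitution mutants above it and overlapping each other, and H2B-K123R and the deletions highest, where rad6Δ untagged overlapped its neighbours.

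TDH2 fell in 4 mutants but not in rad6Δ tagged. It had 247, 186 and 231 CPM in WT untagged, 137.4, 128.5 and 123.2 in rad6Δ untagged, and 113, 154 and 150 in H2B-K123R. With the tags present TDH2 had 147, 183 and 157 CPM in WT tagged, 174, 249 and 183 in rad6Δ tagged, 104.9, 123.1 and 97.67 in rtf1-108-110AAA, 145, 114 and 122 in rad6-R6A,M10A, and 84.6, 110 and 110 in rad6-R6Q. The log2 fold changes called were −0.77 in rad6Δ untagged (adjusted p = 0.000352, edgeR), −0.68 in rad6-R6Q (adjusted p = 0.00226), −0.67 in H2B-K123R (adjusted p = 0.00241) and −0.58 in rtf1-108-110AAA (adjusted p = 0.00852). The fall in rtf1-108-110AAA was lost without replicate 2 of WT tagged (adjusted p = 0.0526) and with K. lactis scaling (adjusted p = 0.108). In rad6Δ tagged the value was 0.32 (adjusted p = 0.103), and with K. lactis scaling 0.50 (adjusted p = 0.0125).

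CDC19 encodes the pyruvate kinase of growth on glucose and PYK2 a minor one. CDC19 had 1032, 886 and 1049 CPM in WT untagged, 543, 503 and 486 in rad6Δ untagged, and 595, 697 and 796 in H2B-K123R, with no overlap. It had 791, 799 and 845 CPM in WT tagged, 668, 861 and 706 in rad6Δ tagged, 736, 689 and 495 in rtf1-108-110AAA, 662, 599 and 583 in rad6-R6A,M10A, and 659, 530 and 652 in rad6-R6Q. CDC19 fell by 0.95 ± 0.14 on the log2 scale in rad6Δ untagged (SE; adjusted p = 9.26e-06, edgeR), by 0.51 in H2B-K123R (adjusted p = 0.00836) and by 0.40 in both rad6 substitution mutants (adjusted p = 0.0344 for rad6-R6A,M10A and 0.0294 for rad6-R6Q). The last 2 were not called with K. lactis scaling (−0.19 in each). They were also lost without replicate 3 of WT tagged, without replicate 2 of the mutant itself, and for rad6-R6A,M10A without replicate 2 of WT tagged or its own replicate 3 (adjusted p up to 0.0992). In rad6Δ tagged CDC19 was not called (log2 −0.12, adjusted p = 0.486), and K. lactis scaling turned the sign to 0.07. PYK2 had 70.5, 76.9 and 67.2 CPM in WT untagged and 51.3, 52.8 and 49 in rad6Δ untagged. In tagged strains PYK2 had 91.4, 62.1 and 77.6 CPM in WT tagged, 48.4, 45 and 54.1 in rad6Δ tagged, and 59.1, 47.8 and 40.1 in rtf1-108-110AAA. In these 3 mutants it fell, by 0.49, 0.65 and 0.66 on the log2 scale (adjusted p = 0.0231, 0.004 and 0.00694, edgeR), so the minor pyruvate kinase did not rise as the minor enolase did. The fall in rad6Δ untagged was lost with K. lactis scaling (adjusted p = 0.0833) and without replicate 2 of WT untagged or replicate 1 or 3 of rad6Δ untagged (adjusted p up to 0.0773), and that in rtf1-108-110AAA with K. lactis scaling (adjusted p = 0.0716). The remaining enzymes were PGK1, which fell in both deletions and H2B-K123R, and GPM1, phosphoglycerate mutase, which fell in rad6Δ untagged and H2B-K123R. The PGK1 fall in rad6Δ tagged was lost with K. lactis scaling (adjusted p = 0.136), and that in H2B-K123R without replicate 2 or 3 of WT untagged or replicate 1 or 3 of H2B-K123R (adjusted p up to 0.104). In rad6-R6Q neither PGK1 (log2 −0.32, adjusted p = 0.075) nor PYK2 (log2 −0.41, adjusted p = 0.0685) was called, and with the replicate number as a block both were (log2 −0.34 and −0.41, adjusted p = 0.0251 and 0.0411).

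**Figure D4:**
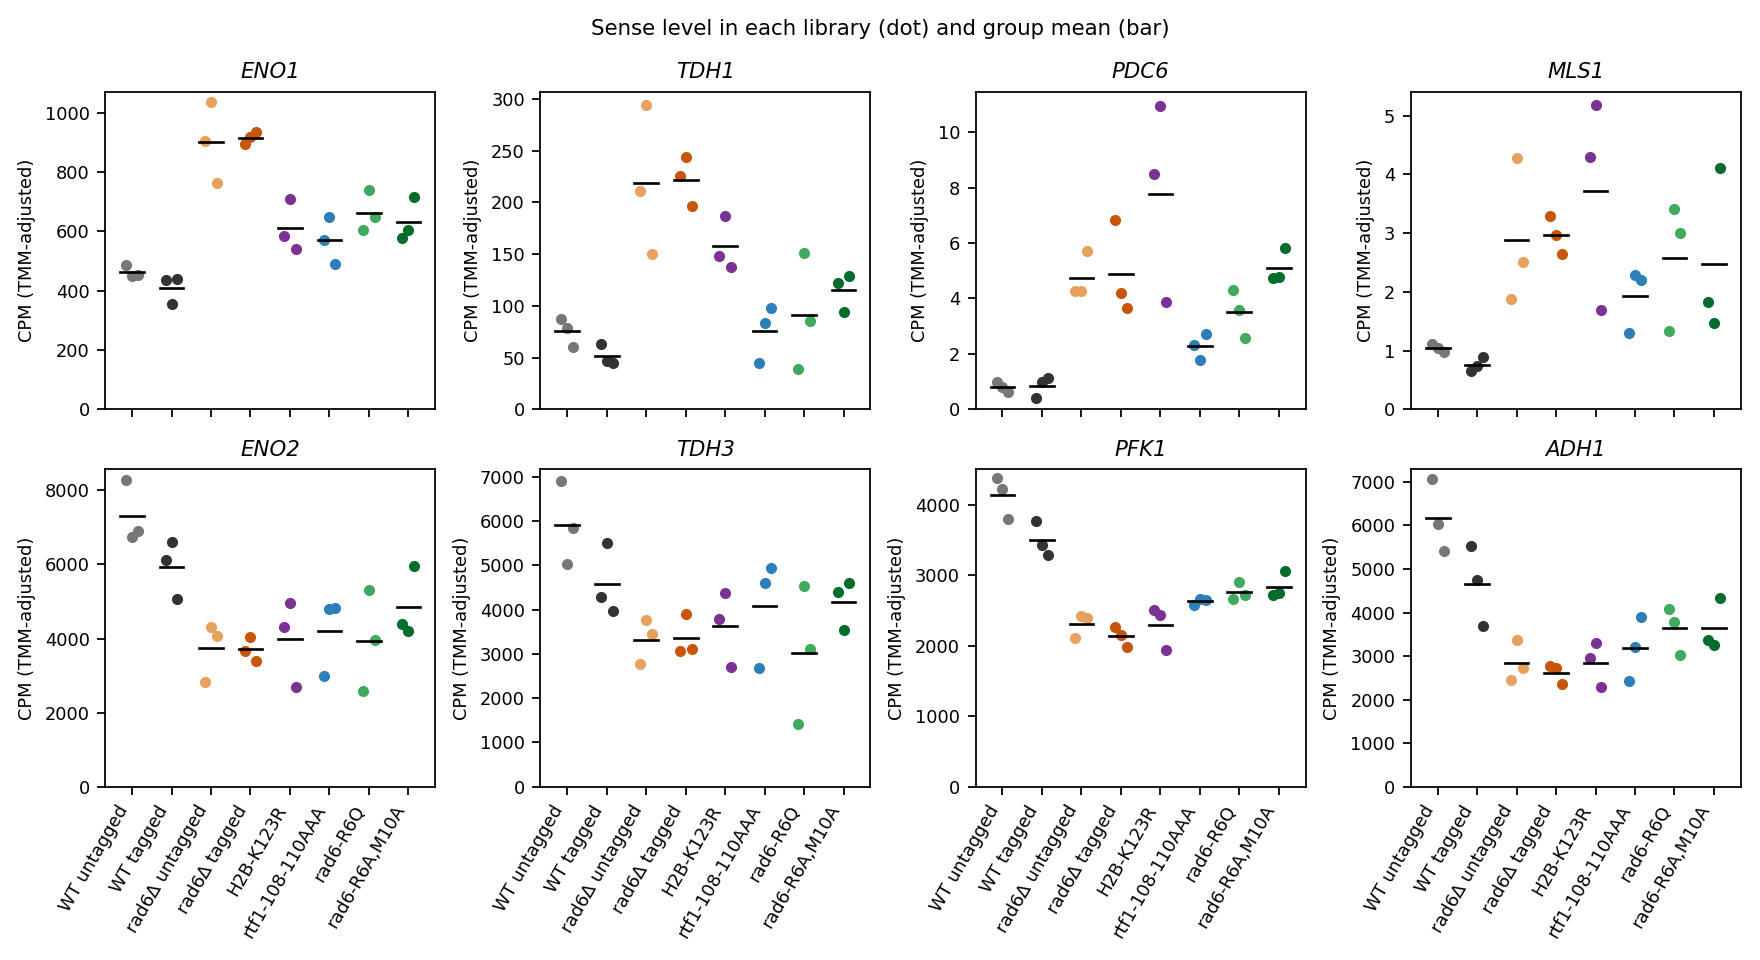
CPM in each of the 24 libraries for ENO1, TDH1, PDC6, MLS1, ENO2, TDH3, PFK1 and ADH1, by group, with bars at the group means. In the deletions ENO1, TDH1, PDC6 and MLS1 lie above their wild types and ENO2, PFK1 and ADH1 below, for example ENO1 at 764 to 1036 against 355 to 485 CPM.

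Pyruvate decarboxylase, the first step from pyruvate to ethanol, has a main enzyme encoded by PDC1, a second by PDC5 and a minor one by PDC6. PDC6 (YGR087C, chromosome VII, 651290 to 652981, minus strand, R64) shares 75% of its bases with PDC1, and none of its 50-base windows had a copy elsewhere. It had 8, 7 and 5 counts in WT untagged, 34, 39 and 57 in rad6Δ untagged, and 77, 95 and 32 in H2B-K123R. In the tagged strains it had 3, 8 and 9 counts in WT tagged, 56, 34 and 29 in rad6Δ tagged, 16, 14 and 27 in rtf1-108-110AAA, 44, 39 and 51 in rad6-R6A,M10A, and 39, 39 and 25 in rad6-R6Q. Every mutant library had more counts than any wild-type library, although counts stayed below 100 throughout. PDC6 had the largest log2 rise of the members in each mutant, at 3.25 ± 0.39 in H2B-K123R (SE; adjusted p = 2.05e-06, edgeR), 2.58 in rad6-R6A,M10A (adjusted p = 8.2e-05), 2.55 in rad6Δ untagged (adjusted p = 3.29e-05) and 2.52 ± 0.41 in rad6Δ tagged (adjusted p = 4.2e-05). It was 2.04 in rad6-R6Q (adjusted p = 0.00102) and 1.43 ± 0.46 in rtf1-108-110AAA (adjusted p = 0.0243), and that last call alone was lost when replicate 1 of WT tagged or replicate 3 of rtf1-108-110AAA was left out (adjusted p up to 0.13). Antisense counts over PDC6 rose too in rad6Δ untagged (log2 1.84, adjusted p = 0.000843) and H2B-K123R (log2 2.24, adjusted p = 6.43e-05).

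PDC1 (YLR044C, chromosome XII, 232390 to 234081, minus strand, R64) was the one member called in opposite directions in the deletions. It had 478, 308 and 369 CPM in WT untagged and 299, 197 and 224 in rad6Δ untagged, and fell by 0.68 ± 0.22 on the log2 scale (SE; adjusted p = 0.0183, edgeR). It had 250.5, 314 and 295 CPM in WT tagged and 491, 758 and 500.2 in rad6Δ tagged, and rose by 1.03 ± 0.22 (adjusted p = 0.00102). Neither pair of groups overlapped. The fall was lost without replicate 1 of WT untagged or replicate 2 or 3 of rad6Δ untagged (adjusted p up to 0.115), whereas the rise was called in all 6 leave-one-out fits. H2B-K123R, at 352, 519 and 562 CPM, was not called (log2 0.31, adjusted p = 0.325). The others ranged from 218 CPM in rad6-R6Q to 419 in rtf1-108-110AAA and were not called. PDC1 and PDC5 are 87.2% identical, and 0.974% of the windows of each had a copy. PDC5 kept group means of 13.8 to 16.7 CPM per kb and was called in no mutant.

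Of the alcohol dehydrogenases, ADH1 makes ethanol, ADH2 consumes it and ADH5 is a minor isozyme. ADH1 had 7057, 6044 and 5406 CPM in WT untagged, 2440, 3376 and 2735 in rad6Δ untagged, and 2954, 3299 and 2288 in H2B-K123R. It had 5524, 4740 and 3681 CPM in WT tagged, 2779, 2719 and 2361 in rad6Δ tagged, 2436, 3210 and 3908 in rtf1-108-110AAA, 3359, 3263 and 4344 in rad6-R6A,M10A, and 4087, 3792 and 3021 in rad6-R6Q. The deletions and H2B-K123R did not overlap their wild types, and the other 3 mutants overlapped WT tagged through its replicate 3. ADH1 fell by 1.11 and 1.12 on the log2 scale in rad6Δ untagged and H2B-K123R (adjusted p = 5.19e-05 and 0.000127, edgeR), by 0.83 ± 0.18 in rad6Δ tagged (SE; adjusted p = 0.00105) and by 0.55 in rtf1-108-110AAA (adjusted p = 0.0333). The fall in rtf1-108-110AAA was lost with K. lactis scaling (adjusted p = 0.309) and without replicate 1 or 2 of either group (adjusted p up to 0.185). Values of −0.36 and −0.35 in rad6-R6Q and rad6-R6A,M10A were not called (adjusted p = 0.155 and 0.173). ADH1 and ADH2 share 88.8% of their bases and 14% of each gene's windows had a copy. ADH2 was at 1.84 to 3.88 CPM per kb and was called in no mutant with TMM scaling, but rose in rad6-R6A,M10A with K. lactis scaling (log2 0.94, adjusted p = 0.0272). ADH5 fell in both deletions (log2 −0.57 in the tagged and −0.44 in the untagged, adjusted p = 0.0148 and 0.0485). Both ADH5 calls were lost with K. lactis scaling (adjusted p = 0.0796 and 0.122), the first without replicate 3 of WT tagged or replicate 2 of rad6Δ tagged (adjusted p up to 0.1) and the second in every leave-one-out fit but that without replicate 1 of rad6Δ untagged (adjusted p up to 0.212).

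The 6 genes of gluconeogenesis, the glyoxylate cycle and acetate activation did not move as a block. In the strain order, 2, 2, 2, 1, 1 and 2 rose and 0, 0, 0, 2, 1 and 0 fell. Each of the 6 has a match, within 600 bases before its start codon, to the carbon source-responsive element, the sequence bound by the activators Cat8 and Sip4. This was found at 6 of the 31 genes, these 6, and at 1.17% of 6005 genes, on either strand, and matches to different motifs could overlap. The element was picked as that of activators of such genes, so these counts are a description and not a test. The matches are shown in capitals with 20 bases on each side, 5′ to 3′ along the gene, from R64, because the same element stands before genes that rose and genes that did not. They lie at chrXII:875266-875316 (minus strand) for FBP1, chrXI:630570-630620 (plus) for PCK1, chrV:287282-287332 (minus) for ICL1, chrXIV:405807-405857 and chrXIV:405838-405888 (plus) for MLS1, chrXV:83323-83373 and chrXV:83267-83317 (minus) for MDH2, and chrI:45417-45467 (minus) for ACS1.
FBP1: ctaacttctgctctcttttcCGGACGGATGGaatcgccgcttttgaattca
PCK1: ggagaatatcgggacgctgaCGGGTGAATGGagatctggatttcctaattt
ICL1: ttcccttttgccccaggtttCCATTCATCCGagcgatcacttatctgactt
MLS1, first match: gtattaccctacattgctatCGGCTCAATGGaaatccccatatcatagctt
MLS1, second match: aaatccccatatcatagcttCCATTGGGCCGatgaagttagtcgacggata
MDH2, first match: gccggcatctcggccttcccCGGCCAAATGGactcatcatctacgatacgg
MDH2, second match: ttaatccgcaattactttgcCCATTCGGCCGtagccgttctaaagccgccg
ACS1: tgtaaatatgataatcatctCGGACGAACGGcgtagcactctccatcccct
MLS1 and MDH2 have 2 matches each and were called as risen in 5 and 4 mutants, and ACS1, with 1 match, was in 1. Whether the number of matches has a part in the calls was not tested. A match describes letters and not a bound site.

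MLS1 (YNL117W, chromosome XIV, 406358 to 408022, plus strand, R64) encodes malate synthase of the glyoxylate cycle. It had 9, 9 and 8 counts in WT untagged, 15, 39 and 25 in rad6Δ untagged, and 39, 45 and 14 in H2B-K123R. It had 5, 6 and 7 counts in WT tagged, 27, 24 and 21 in rad6Δ tagged, 9, 18 and 22 in rtf1-108-110AAA, 17, 12 and 36 in rad6-R6A,M10A, and 12, 37 and 29 in rad6-R6Q. Every mutant library lay above its wild type. MLS1 rose in 5 mutants, by 1.95 ± 0.51 on the log2 scale in rad6Δ tagged (SE; adjusted p = 0.00368, edgeR), 1.83 in H2B-K123R (adjusted p = 0.0046), 1.77 in rad6-R6Q (adjusted p = 0.0112), 1.69 in rad6-R6A,M10A (adjusted p = 0.0195) and 1.46 in rad6Δ untagged (adjusted p = 0.0145), and its 1.36 in rtf1-108-110AAA was not called (adjusted p = 0.0678) unless scaled to K. lactis (1.61, adjusted p = 0.0275). At such counts 1 library could decide. The call was lost in rad6Δ untagged without its replicate 2 (adjusted p = 0.111), in rad6-R6Q without its replicate 2 or replicate 1 of WT tagged (adjusted p up to 0.0541), and in rad6-R6A,M10A without its replicate 3 or replicate 1 or 2 of WT tagged (adjusted p up to 0.158).

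MDH2 (YOL126C, chromosome XV, 81787 to 82920, minus strand, R64) encodes the cytosolic malate dehydrogenase. It had 42.6, 42.3 and 47.4 CPM in WT untagged, 72.1, 97.5 and 89.9 in rad6Δ untagged, and 56.1, 69.3 and 67.2 in H2B-K123R. Among strains with tags it had 31.2, 35.5 and 32.4 CPM in WT tagged, 80.5, 107 and 82.1 in rad6Δ tagged, 40.9, 60.9 and 88.3 in rtf1-108-110AAA, 56.7, 69 and 62.2 in rad6-R6A,M10A, and 25.5, 77 and 51.1 in rad6-R6Q. Replicate 1 of rad6-R6Q was the one mutant library that did not lie above its wild type. MDH2 rose by 1.44 ± 0.28 on the log2 scale in rad6Δ tagged (SE; adjusted p = 0.00036, edgeR), 0.97 in rad6Δ untagged (adjusted p = 0.0074), 0.94 in rtf1-108-110AAA (adjusted p = 0.0178) and 0.92 in rad6-R6A,M10A (adjusted p = 0.021). Values of 0.54 in H2B-K123R and 0.63 in rad6-R6Q were not called (adjusted p = 0.158 and 0.0956), although the latter was with K. lactis scaling (0.84, adjusted p = 0.0336). The calls in rtf1-108-110AAA and rad6-R6A,M10A were lost without replicate 1 or 3 of WT tagged, and without replicate 3 of rtf1-108-110AAA or replicate 2 of rad6-R6A,M10A (adjusted p up to 0.14).

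Of the other 4 genes of this branch, PCK1 fell in 1 mutant, ICL1 in 2 and FBP1 in none, and ACS1 rose in 1. In H2B-K123R none of the 6 genes of the branch lay below 0, and their median log2 fold change was 0.65. PCK1, phosphoenolpyruvate carboxykinase, had 6.55, 6.08 and 6.05 CPM in WT tagged and 2.89, 3.56 and 4.81 in rtf1-108-110AAA, where it fell by 0.70 on the log2 scale (adjusted p = 0.0293, edgeR). That call was lost in 5 of 6 leave-one-out fits, all but that without replicate 3 of rtf1-108-110AAA (adjusted p up to 0.134). ICL1, isocitrate lyase, had 18.7, 19.1 and 15.9 CPM in WT tagged, 10.7, 13 and 13.4 in rtf1-108-110AAA, and 9.6, 12.7 and 12.1 in rad6-R6Q, without overlap. ICL1 fell by 0.53 (adjusted p = 0.0144) and 0.64 (adjusted p = 0.00332) on the log2 scale in those mutants, and the first call was lost without replicate 2 of WT tagged or replicate 1 of rtf1-108-110AAA (adjusted p up to 0.0834). None of these PCK1 and ICL1 falls was called with K. lactis scaling. ICL1 and MLS1, the enzymes proper to the glyoxylate cycle, were thus called in opposite directions in rad6-R6Q. ACS1, an acetyl-CoA synthetase, rose in H2B-K123R alone among the 6 mutants (log2 0.75, adjusted p = 0.0235), a call lost in 4 of 6 leave-one-out fits, without replicate 1 or 2 of either group (adjusted p up to 0.0875). FBP1 had 1 to 16 counts per library and was called in no mutant (H2B-K123R log2 1.16, adjusted p = 0.105). Of the pyruvate carboxylases, which refill the citric acid cycle, PYC2 rose in rad6Δ tagged (log2 0.55, adjusted p = 0.00972) and rad6-R6A,M10A (log2 0.53, adjusted p = 0.0205), and PYC1 was called in no mutant. With K. lactis scaling PYC2 also rose in rtf1-108-110AAA (log2 0.64, adjusted p = 0.0123) and rad6-R6Q (log2 0.55, adjusted p = 0.0298). The TMM call in rad6Δ tagged was lost without replicate 1 of rad6Δ tagged (adjusted p = 0.0507) and that in rad6-R6A,M10A without replicate 1 or 3 of WT tagged or its own replicate 3 (adjusted p up to 0.157). PYC1 reached 377 CPM in replicate 1 of WT tagged, the library with the high stress sum, and 138 and 133 CPM in the other two.

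At several glucose-repressed genes most reads came from the opposite strand. Antisense counts made up 86% of the counts of both strands over FBP1, 82% over ICL1, 79.9% over MLS1, 74.2% over ADH2 and 61.8% over ACS1, and antisense exceeded sense in all 8 groups at each. Over MDH2 the share was 6.6%. With 26 members among the 3741 genes tested on that strand, 4, 4, 4, 2, 3 and 3 were called in the strain order, beside 28.2%, 29.5%, 33.0%, 20.4%, 21.5% and 18.7% of all genes. Antisense over MDH2 was called in all 6 mutants, each time as a rise, and MDH2 itself rose in 4 of them. Its antisense counts were 23, 13 and 9 in WT untagged, 39, 46 and 42 in rad6Δ untagged, and 69, 61 and 47 in H2B-K123R. They were 24, 19 and 17 in WT tagged, 36, 32 and 33 in rad6Δ tagged, 33, 40 and 45 in rtf1-108-110AAA, 45, 38 and 37 in rad6-R6A,M10A, and 59, 50 and 57 in rad6-R6Q. No mutant library reached down to its wild type. The log2 fold change of MDH2 antisense was 1.90 in H2B-K123R (adjusted p = 7.62e-07, edgeR), 1.37 in rad6Δ untagged (0.000113), 1.16 in rad6-R6Q (0.00061), 0.92 in rtf1-108-110AAA (0.00713), 0.85 in rad6-R6A,M10A (0.0126) and 0.72 in rad6Δ tagged (0.0282). The call in rad6Δ tagged was lost without replicate 2 or 3 of WT tagged or replicate 1 or 3 of rad6Δ tagged (adjusted p up to 0.116) and with the antisense counts scaled to their own totals (adjusted p = 0.0535), and that in rad6-R6A,M10A without replicate 2 or 3 of WT tagged (adjusted p up to 0.068).

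Antisense over ACS1 went the other way in the tagged mutants. It had 93, 95 and 73 counts in WT tagged, 27, 44 and 48 in rad6Δ tagged, 20, 44 and 34 in rtf1-108-110AAA, 38, 27 and 52 in rad6-R6A,M10A, and 60, 39 and 38 in rad6-R6Q. On the log2 scale it fell by 1.16 in rad6Δ tagged (adjusted p = 0.000892, edgeR), by 1.47 in rtf1-108-110AAA (adjusted p = 0.000151), by 1.23 in rad6-R6Q (adjusted p = 0.000607) and by 1.30 in rad6-R6A,M10A (adjusted p = 0.000485). WT untagged had 53, 52 and 59 counts of ACS1 antisense, below every library of WT tagged, and rad6Δ untagged had 48, 38 and 60. Sense counts of ACS1 stayed between 14 and 43 in the same tagged libraries and were called in none of the 4. Over ICL1 the antisense fell in rad6Δ tagged (log2 −0.72, adjusted p = 1.59e-05), rad6-R6A,M10A (−0.44, 0.00485) and rad6Δ untagged (−0.35, 0.017), on 384 to 757 counts per library. Over MLS1 it rose in H2B-K123R (log2 0.87, adjusted p = 0.000256) and rad6Δ untagged (0.57, 0.0141), 2 mutants in which the sense strand rose as well. Scaled to antisense totals, neither MLS1 value was called (adjusted p = 0.0547 and 0.273), and that in rad6Δ untagged was lost without replicate 2 of WT untagged (adjusted p = 0.104). The ICL1 fall in rad6Δ untagged was lost without replicate 1 of WT untagged or its own replicate 3 (adjusted p up to 0.119). Antisense counts over 6 abundant members were 0.00638 to 0.357% of their sense counts and differed between libraries of a group. Replicate 3 was highest in every group but rad6-R6Q, and that of rtf1-108-110AAA was highest of all. Antisense over those members was therefore left aside.

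**Figure D5:**
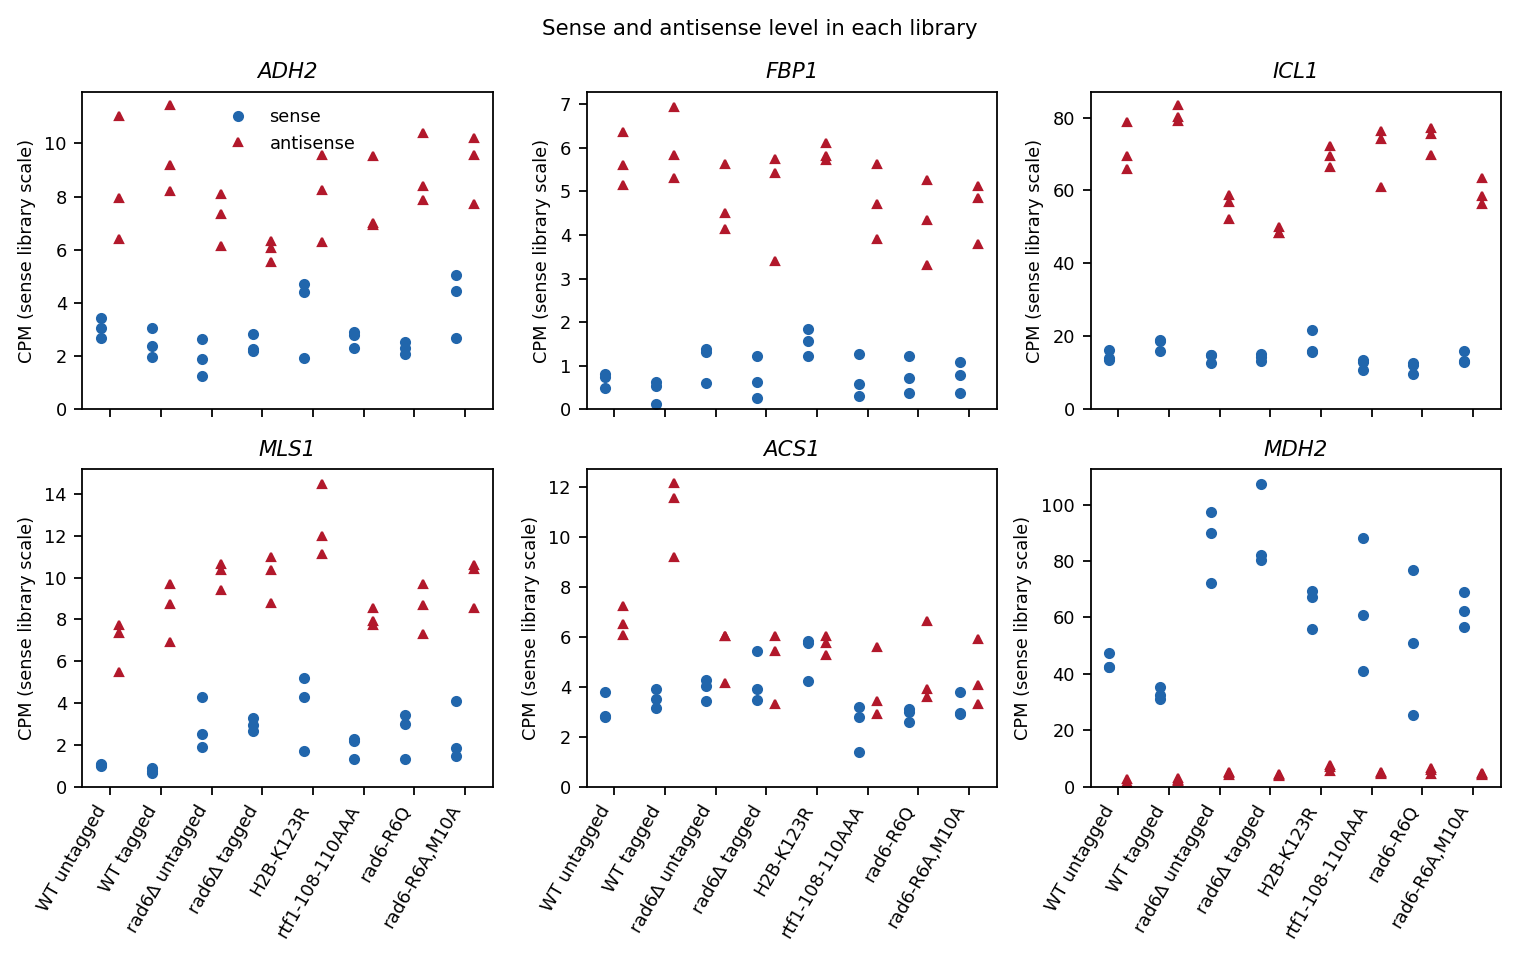
Sense and antisense CPM in each library for ADH2, FBP1, ICL1, MLS1, ACS1 and MDH2. Antisense lies above sense in the first 5, whose antisense shares are 61.8 to 86%, and below it for MDH2, where both strands are higher in the deletions than in the wild types.

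The mutants were also set against the deletion of the same tag status, which asks whether a substitution equals the loss of Rad6. In rad6-R6Q, 8 members were called against rad6Δ tagged, 3 higher and 5 lower, beside 8.2% and 8.22% of all genes (16.4% in all). In rad6-R6A,M10A 7 were called, 4 higher and 3 lower, beside 3.71% and 4.84% (8.55%). In rtf1-108-110AAA 8 were called, 1 higher and 7 lower, beside 6.44% and 7.89% (14.3%), and in H2B-K123R against rad6Δ untagged 4, 3 higher and 1 lower, beside 5.25% and 5.27% (10.5%). ENO1 was lower than in the deletion in all 4, with log2 differences of −0.46 in rad6-R6Q, −0.53 in rad6-R6A,M10A, −0.68 in rtf1-108-110AAA and −0.56 in H2B-K123R. TDH2 and PDC1 were lower than in rad6Δ tagged in each of the 3 tagged mutants. For PDC1 the log2 difference was −1.18 (adjusted p = 0.00124, edgeR), −1.01 (0.00697) and −0.79 in rad6-R6Q, rad6-R6A,M10A and rtf1-108-110AAA. Against WT tagged, with TMM scaling, PDC1 was called as risen in rad6Δ tagged and TDH2 was not called there. TDH1 was lower in rtf1-108-110AAA (log2 −1.55, adjusted p = 0.00632) and rad6-R6Q (log2 −1.27, adjusted p = 0.0202), and PDC6 in rtf1-108-110AAA (log2 −1.09, adjusted p = 0.035). The TDH1 call in rad6-R6Q was lost in 4 of 6 leave-one-out fits (adjusted p up to 0.0832) and the PDC6 call in 5 of 6 (adjusted p up to 0.235). Among abundant genes, HXK2 was higher than in rad6Δ tagged in rad6-R6Q and rad6-R6A,M10A, with log2 differences of 0.48 and 0.39, and PFK1 in these and in rtf1-108-110AAA, with 0.37, 0.41 and 0.30. In H2B-K123R, PDC1 stood above rad6Δ untagged by log2 0.99 (adjusted p = 0.00688). Calls held in every leave-one-out fit for 2 of the 8 members in rad6-R6Q (TDH2 and PDC1), 1 of 7 in rad6-R6A,M10A (PDC1), 3 of 8 in rtf1-108-110AAA (TDH1, TDH2 and ENO1) and 1 of 4 in H2B-K123R (PDC1).

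No member passed the threshold between the wild types, where tag and strain cannot be told apart. Between WT tagged and WT untagged 0 of 31 were called with edgeR, beside 0.674% of all genes (0.345% higher and 0.328% lower). At an unadjusted p under 0.05 there were 7 (PFK1, PFK2, FBA1, TDH2, GPM1, CDC19 and ADH1), beside 11.8% of all genes, and DESeq2 called 1, FBA1. The member median was −0.28 there, beside 0.01 over all genes. Between rad6Δ tagged and rad6Δ untagged 1 member was called, PDC1, beside 0.207% of all genes, higher in the tagged deletion by log2 1.28 ± 0.23 (SE; adjusted p = 0.02, edgeR). That call was lost without replicate 2 or 3 of rad6Δ untagged or replicate 2 of rad6Δ tagged (adjusted p up to 0.265). DESeq2 called 3 there, TDH2, CDC19 and PDC1.

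Genes around the pathway were read from lists of its paralogs, branches, regulators and transporters. Over all genes, 21.5%, 22.3%, 14%, 11.9%, 14.6% and 12% rose and 20.2%, 20.5%, 12.3%, 12.6%, 14.5% and 13.2% fell in the strain order. The lists are short and several of their counts lie near these shares. They were read with TMM scaling alone, without the K. lactis and leave-one-out fits made for the members. Some calls lie near the threshold, such as those of TYE7 in rad6-R6Q and rad6-R6A,M10A (adjusted p = 0.0441 and 0.0394, edgeR). Of 11 paralogs and side enzymes, 4, 4, 2, 2, 2 and 3 rose and 3, 3, 2, 3, 2 and 2 fell in the strain order. The largest rise in each was GPM2, a paralog of GPM1, with log2 values of 2.13, 2.0, 1.48, 0.91, 1.05 and 1.38. The largest fall in each was ADH4, an alcohol dehydrogenase isozyme, with −1.64, −1.85, −1.64, −0.99, −1.04 and −1.17. Of 7 hexose transporter, invertase and lactate transporter genes, 1, 1, 1, 0, 1 and 1 rose and 4, 3, 2, 3, 4 and 4 fell, led by falls of HXT1, a hexose transporter induced by high glucose, of −1.89, −1.88, −1.31, −1.48, −1.32 and −1.09. JEN1, a lactate permease repressed by glucose, was the gene that rose, with 1.11, 1.59, 2.20, 1.07 and 0.81 in the mutants other than rtf1-108-110AAA. Of 11 regulators, 4, 4, 4, 1, 1 and 2 rose and 3, 2, 1, 0, 1 and 3 fell. SIP4, an activator of gluconeogenic genes, rose most in the deletions and H2B-K123R (log2 1.62, 1.57 and 1.56), and TYE7, an activator of glycolytic genes, fell most in the deletions, rad6-R6Q and rad6-R6A,M10A (log2 −1.15, −1.68, −0.87 and −0.93). The largest rise was of REG1 in rtf1-108-110AAA and rad6-R6Q (log2 0.54 and 0.72) and of CAT8 in rad6-R6A,M10A (0.59). In H2B-K123R the fall was of RAP1 (−0.38). Of 11 genes of acetate formation and the glyoxylate branch, 4, 4, 6, 2, 3 and 4 rose and 1, 2, 1, 1, 0 and 0 fell, and SFC1, which carries succinate into mitochondria, rose most in both deletions, H2B-K123R and rad6-R6A,M10A (log2 1.93, 2.67, 1.58 and 1.60). ALD5 rose most in rtf1-108-110AAA (log2 0.67) and CIT2 in rad6-R6Q (0.88). The largest falls were of ACS2 in rad6Δ tagged and H2B-K123R (log2 −0.80 and −1.01), ALD6 in rad6Δ untagged (−1.52) and ALD2 in rtf1-108-110AAA (−0.84). Of 6 glycerol genes, 1 rose and 1 fell in rad6Δ untagged, as in H2B-K123R, while the other mutants had no call.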

How the data were processed

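The authors deposited raw read counts per gene in 4 tables (own strand, opposite strand, without regard to strand, and K. lactis genes), each with 24 libraries, per the file headers. The submitters' processing notes name STAR 2.7.5a, featureCounts, DESeq2 and the builds R64 and sacCer3, without their roles. RNA was extracted with hot acid phenol, depleted of ribosomal RNA and made into strand-specific libraries, per the labels' protocols. The library depth is given with the results.

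edgeR 4.0.16 (R 4.3.3, limma 3.58.1) fitted the counts: TMM scaling, filterByExpr, 8 group means over all 24 libraries, robust quasi-likelihood F tests. The SE is the absolute log2 fold change divided by the square root of F. Antisense counts used the sense library sizes. Of 6571 genes, 5790 were tested, all 31 members among them, and of antisense genes 3741, with 26 members. Code was tested on simulated data. DESeq2 1.42.0 was an alternative, as were K. lactis scaling, other filters, a fit to the compared groups, unstranded counts and leaving out each library. Figures used matplotlib 3.10.9. Coding coordinates and promoters came from R64.

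The members, gene lists and rules were chosen with earlier results of these data known. Values per library are printed for the 3 largest called rises and falls per mutant, members called in at least 5 of 6 mutants, and members called with a log2 change of 1 or more, up or down, in other comparisons; TDH3, ACS1, PYC1 and antisense counts were added after their values were seen. The comparison of the 2 deletion effects was also added then. Each group was 1 strain grown 3 times, so p-values set a difference against the spread between samples of a strain and not between strains. That spread was estimated jointly over all 8 groups, also those outside the comparison. Replicates differed beyond counting noise (lowest chi-square per degree of freedom 5.59), and groups differed in this. Pairs of replicates gave 38 to 86.4 in rad6-R6Q, 15.3 to 65.8 in rtf1-108-110AAA and 5.59 to 32.3 in the other groups. The part of this in the calls was not tested. Same-numbered replicates of WT tagged, rad6Δ tagged and rad6-R6Q deviated together, with correlations of 0.172 to 0.517 in their 3 comparisons. Each pair was above 0.1 and best with its own number, so numbers appeared to pair samples there, from the data and not the labels. In the other 9 comparisons same-numbered replicates gave −0.419 to 0.344 and were not taken to pair samples. Antisense over 6 abundant members was nevertheless highest in replicate 3 of every group but rad6-R6Q. What samples of a number share there was not tested. The main fits ignored any pairing, and so do the p-values printed, except where the replicate block is named. With that block, rad6-R6Q had 11 calls against WT tagged in place of 9.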

Additional observations from a re-analysis of the deposited data

Results flagged for a closer look

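The effect of deleting RAD6 was compared between the tagged and the untagged background in 1 interaction test over all 5790 genes, and 2 members differed, TDH2 and PDC1, beside 0.276% of all genes. For PDC1 the deletion effect was higher in the tagged background by 1.7069 ± 0.317 on the log2 scale (SE; adjusted p = 0.033, edgeR), with a rise of 1.03 in rad6Δ tagged and −0.68 in rad6Δ untagged. All 3 libraries of rad6Δ tagged (491 to 758 CPM) lay above WT tagged (250.5 to 314) and all 3 of rad6Δ untagged (197 to 299) below WT untagged (308 to 478). For TDH2 the difference was 1.086 ± 0.217 (adjusted p = 0.034), with 0.32, which was not called, in the tagged and −0.77 in the untagged deletion. Both rested on few libraries. Across the 12 fits that left out 1 library, PDC1 kept values of 1.4684 to 1.8939 with adjusted p of 0.0172 to 0.13 and was lost in 6, those without replicate 1 of WT untagged, replicate 1 or 3 of WT tagged, replicate 2 or 3 of rad6Δ untagged, or replicate 2 of rad6Δ tagged. TDH2 kept 0.9058 to 1.1975 with adjusted p of 0.0172 to 0.136 and was lost in 9, all but those without replicate 2 of either wild type or replicate 1 of rad6Δ tagged. The deletions differ in the HA tag on Rtf1 and the wild types in the tags on Rtf1 and Rad6, and tag and strain cannot be told apart.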

How the results depend on the processing

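Over 135 fold changes, all calls and the uncalled values printed, TMM without the members, DESeq2 size factors, no filter and the replicate block each left 132 or more unchanged in direction and call. K. lactis scaling left 97, with 30 calls lost, 5 gained and 3 signs turned. The signs that turned belonged to values not called: CDC19 in rad6Δ tagged (0.0671 with K. lactis scaling by TMM, 0.1894 by total counts, an alternative added later), FBA1 in rad6-R6A,M10A (0.0243 and 0.0781) and TPI1 in rad6-R6A,M10A (0.0261 and 0.0821). Members called fell from 12 to 5 in rtf1-108-110AAA under both K. lactis scalings, from 4 to 2 in H2B-K123R against rad6Δ untagged, and with total counts to 4 in rad6-R6A,M10A against rad6Δ tagged and to 1 in the interaction. Fitting only the compared groups left fewer samples and took the spread from those samples alone. It gave 6 in rtf1-108-110AAA (9 falls became 2), 5 in rad6-R6Q (6 falls became 2) and 0 between the deletions. Against rad6Δ tagged it gave 3 in rad6-R6Q and 4 in rtf1-108-110AAA. It raised calls from 17 to 21 in rad6Δ tagged, 17 to 20 in H2B-K123R and 7 to 10 in rad6-R6A,M10A against rad6Δ tagged. The DESeq2 Wald test gave 1 between the wild types and 3 between the deletions. Unstranded counts, which drop reads where genes overlap, gave member shares of 6.98% in WT untagged, 5.87% in WT tagged, 4.87% in rad6Δ tagged, 5.08% in H2B-K123R and 5.42% in rad6-R6A,M10A.

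With the replicate number as a block, 17, 21, 17, 12, 11 and 10 members were called in the 6 mutants in the order used above, and no call was lost in any comparison. Falls gained were those of PGK1 and PYK2 in rad6-R6Q and of HXK2 and PYK2 in rad6-R6A,M10A, and against rad6Δ tagged PGK1 in rad6-R6A,M10A and GLK1 in rtf1-108-110AAA were gained. Own numbers correlated best in all 9 cases of the 3 comparisons among WT tagged, rad6Δ tagged and rad6-R6Q, and in 9 of 27 elsewhere. Leaving out 1 library gave 7 to 10 calls in rtf1-108-110AAA (7 without replicate 1 of WT tagged) and 4 to 8 in rad6-R6A,M10A (4 or 5 without any replicate of WT tagged or its own replicate 3). It gave 0 to 1 between the deletions (0 without replicate 2 of either or replicate 3 of rad6Δ untagged). Against rad6Δ tagged it gave 4 to 8 in rad6-R6Q (4 without its replicate 1 or replicate 2 of rad6Δ tagged, 5 without its replicate 3), 2 to 5 in rad6-R6A,M10A (2 without its replicate 2, 3 or 4 without any replicate of rad6Δ tagged) and 4 to 6 in rtf1-108-110AAA (4 without replicate 1 or 2 of rad6Δ tagged, 5 without its own replicate 2). It gave 2 to 4 in H2B-K123R against rad6Δ untagged (2 without replicate 2 or 3 of the latter), 0 to 3 in the interaction (0 or 1 without 9 of the 12 libraries), and 2 to 5 antisense calls in rad6Δ tagged (2 without replicate 2 of WT tagged). Calls held in every such fit for 14 of 17, 16 of 21, 11 of 17, 3 of 12, 5 of 9 and 2 of 8 members in the 6 mutants. PDC6, MLS1, FBP1, ADH2, ACS1 and PCK1 had under 100 counts in every library.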
